A study of Homo sapiens with 179 samples.

Results

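The 10 integrin genes described here are ITGA2, ITGA3, ITGA5, ITGA6, ITGA7, ITGAE, ITGAV, ITGB1, ITGB5 and ITGB8. They were taken by gene symbol from the 19084 genes of the expression tables. The annotation in the tables holds 26 integrin subunit genes, of which 18 encode alpha and 8 encode beta subunits. The 10 genes carried 97.4% ± 0.08 (SD, n = 3) of the summed integrin transcripts in H1p43 and 98.1% ± 0.04 (SD, n = 3) in H1p16.

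Every library held RNA of H1, a human embryonic stem cell line, kept in the chemically defined medium E8 on plates coated with Matrigel, a basement membrane extract. The LM-Seq libraries, made from oligo-dT selected RNA by random-hexamer reverse transcription, were multiplexed by lane: Lane 1 held 95 libraries, Lane 2 held 48, Lane 3 held 24 and Lane 4 held 6. H1p43 (n = 3) and H1p16 (n = 3) were made with the TruSeq RNA Sample Prep Kit v2 and run at 12 samples per lane. What the letter p stands for was not given in the sources used here, nor whether the replicates are different cultures. The p-values then measure the spread between libraries, which may be technical. Between pairs of libraries, chi-square per degree of freedom (about 1 for counting error alone) was 1.29 to 1.38 in H1p43. It was 1.91 to 4.08 in H1p16 and 5.79 to 10.3 in Lane 4. The H1p43 libraries thus differed by little more than counting error. Library totals ran from 1040671 expected counts in the shallowest library of Lane 1 to 16583048 in the deepest of Lane 4, from 29018106 to 35852646 in H1p43, and from 23680503 to 30628645 in H1p16. The 10 pluripotent stem cell markers POU5F1, NANOG, SOX2, LIN28A, DNMT3B, TDGF1, PODXL, ZFP42, L1TD1 and SALL4 were all above 1 TPM (a transcript level scaled by transcript length and library total) in the mean of every group, so the label of stem cells was met. Summed blood markers reached at most 2.48 TPM and keratinocyte markers at most 2.44 TPM in the libraries of H1p43, H1p16 and Lane 4, while the 9 fibroblast markers summed to 386 to 420 TPM in Lane 4, 491 to 505 TPM in H1p43 and 562 to 597 TPM in H1p16. Of these 9, THY1 was the most abundant (387 ± 5.05 TPM in H1p43 and 495 ± 14.4 TPM in H1p16; SD, n = 3 each). In Lane 4 THY1 averaged 252 TPM. The collagen gene COL1A1 averaged 45.7 TPM in H1p43, 44.9 TPM in H1p16 and 79.5 TPM in Lane 4. COL1A2 averaged 50.7 TPM in H1p43, 29.3 TPM in H1p16 and 62.99 TPM in Lane 4. COL3A1 averaged 0.04 TPM in H1p43, 0.06 TPM in H1p16 and 0.13 TPM in Lane 4, and DCN and LUM were at 0 in every library. Most of each fibroblast sum was thus THY1, and whether the cultures held fibroblasts was not tested.

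Integrins are cell surface receptors in which an alpha and a beta chain pair to bind matrix proteins outside the cell and the actin cytoskeleton inside it. Most alpha chains of this set pair with the beta chain encoded by ITGB1: those of ITGA3, ITGA6 and ITGA7 form laminin receptors, that of ITGA2 a collagen receptor and that of ITGA5 the classic fibronectin receptor. The chain from ITGAV pairs with several beta chains, including those from ITGB5, in a vitronectin receptor, and ITGB8, in a receptor that releases TGF-beta from its latent form. Human pluripotent cells are known for their ITGA6 and ITGB1 receptor, which holds them to laminin.

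The tails of these proteins carry motifs just inside the membrane, GFFKR in the alpha chains and HDRRE in the beta chains of ITGB1 and ITGB5. The stretches that encode them are shown because they let the same short peptide be compared across genes. The following stretches of coding sequence are from GENCODE release 29 transcripts, 5′ to 3′ on the coding strand, with the codons of the motif in capitals. The HDRRE motif was not found in the translated coding sequence of the ITGB8 transcript, so no stretch is shown for it. The motifs of ITGAV and ITGAE share all but the last codon. Whether these codons bear any relation to transcript levels was not tested.
ITGB1: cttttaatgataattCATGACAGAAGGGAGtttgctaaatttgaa
ITGB5: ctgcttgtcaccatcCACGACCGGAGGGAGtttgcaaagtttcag
ITGA6: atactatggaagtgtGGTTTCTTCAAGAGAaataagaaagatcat
ITGA7: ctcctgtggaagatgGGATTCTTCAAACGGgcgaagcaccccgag
ITGA3: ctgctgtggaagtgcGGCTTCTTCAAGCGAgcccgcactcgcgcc
ITGA2: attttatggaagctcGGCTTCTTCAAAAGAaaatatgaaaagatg
ITGA5: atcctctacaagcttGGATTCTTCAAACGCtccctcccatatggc
ITGAV: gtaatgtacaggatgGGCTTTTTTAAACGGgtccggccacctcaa
ITGAE: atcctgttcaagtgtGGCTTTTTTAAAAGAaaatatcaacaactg

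The genes lie on chromosome 10 (ITGB1), chromosome 3 (ITGB5), chromosome 7 (ITGB8), chromosome 2 (ITGA6 and ITGAV), chromosome 12 (ITGA7 and ITGA5), chromosome 17 (ITGA3 and ITGAE) and chromosome 5 (ITGA2). The last base of their codons was G or C in 38.6% of codons in ITGB1 at the lowest and in 75.9% in ITGA3 at the highest. Over whole transcripts, GC content was 37.8% in ITGB8, 39.3% in ITGB1, 39.9% in ITGAV, 40.2% in ITGA2 and 42.2% in ITGA6. It was 54.3% in ITGB5, 54.8% in ITGAE, 58.7% in ITGA5, 59.9% in ITGA7 and 60.9% in ITGA3, against a median of 49.9% over the 18537 genes with a matched transcript. The set therefore falls into 5 genes of low and 5 genes of high GC content, and both kinds hold both alpha and beta genes.

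The common beta chain was the most abundant integrin transcript of the cells in every group. ITGB1 averaged 337 ± 2.37 TPM in H1p43 and 341 ± 1.25 TPM in H1p16 (SD, n = 3 each). ITGB5 followed at 233 ± 1.75 TPM in H1p43 and 189 ± 3.88 TPM in H1p16, and ITGA6, the most abundant alpha chain, at 83.5 ± 0.58 TPM in H1p43 and 84.6 ± 1.52 TPM in H1p16. ITGA7 came next, at 35.97 TPM in H1p43 and 28.2 TPM in H1p16. The remaining members ran down to ITGB8, which averaged 1.34 TPM in H1p43 and 0.94 TPM in H1p16.

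Within each TruSeq group, the TPM ranges of neighbours in this order did not overlap. The order itself differed at 1 place: in H1p43 ITGA5 (26.2 to 27.5 TPM) stood above ITGAV (21.8 to 22.4 TPM), while in H1p16 ITGA5 (19.2 to 19.9 TPM) stood below ITGAV (22.8 to 24.3 TPM). In Lane 4 the order was ITGB1, ITGA6, ITGB5, ITGAV, ITGA7, ITGA5, ITGA3, ITGA2, ITGAE and ITGB8, where ITGA5 overlapped ITGA3, ITGA2 overlapped ITGAE, and ITGAE overlapped ITGB8. ITGA6 thus stood above ITGB5 in Lane 4, and below it in both TruSeq groups.

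**Figure D1:**
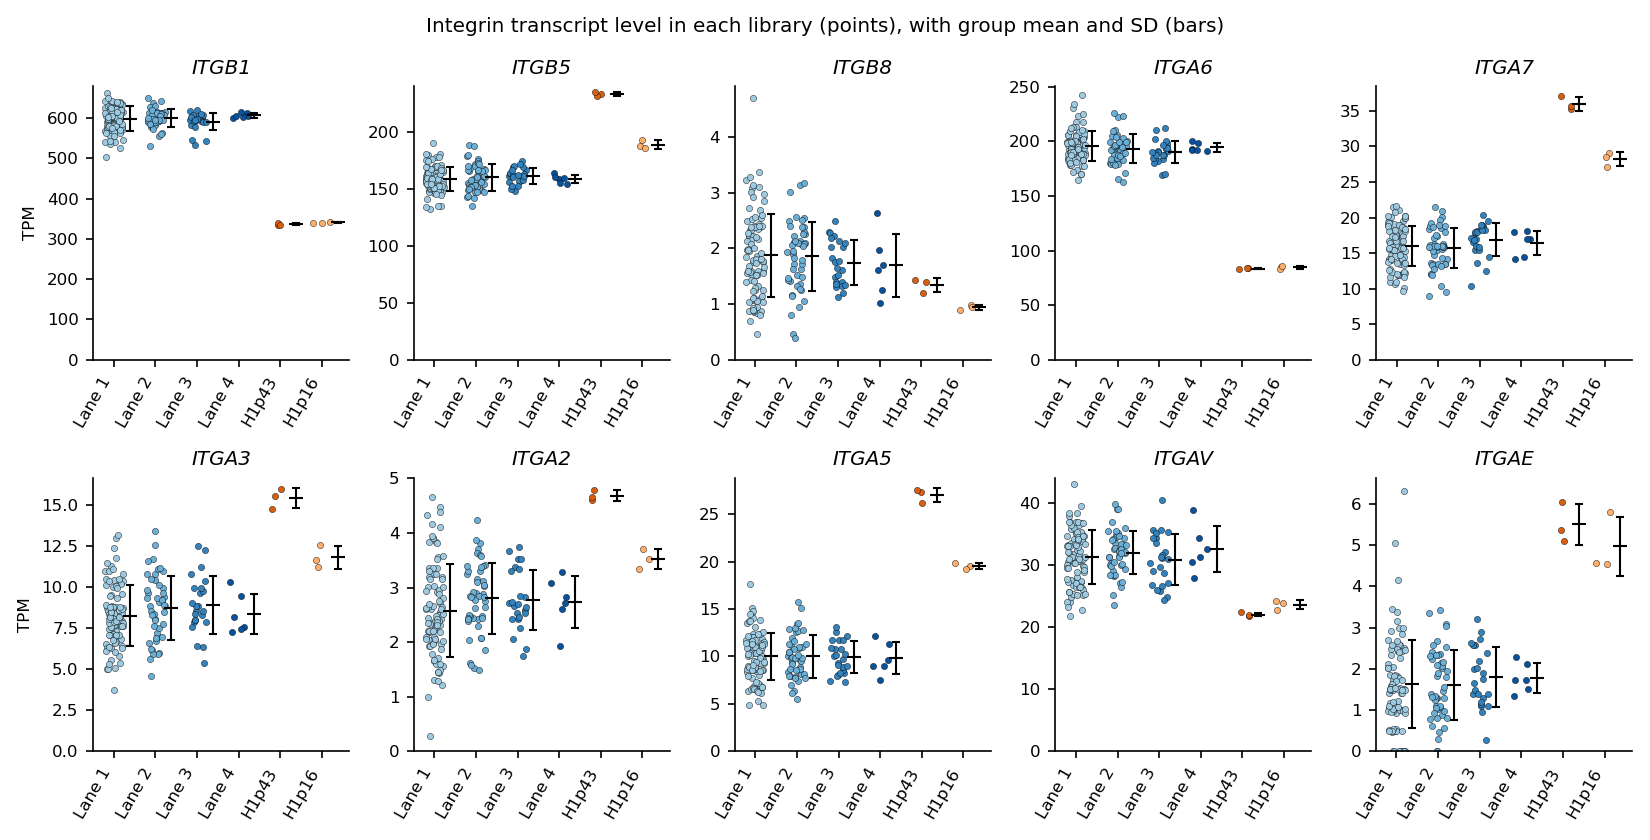
TPM (linear axis from 0) of each of the 10 integrin genes in every library, one panel a gene and one column of points a group, with the group mean and SD beside the points. The 6 libraries of Lane 4 lie between 600 and 615 TPM for ITGB1, above all 6 TruSeq libraries, and between 7.55 and 12.2 TPM for ITGA5, below all 6 TruSeq libraries.

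Summed over subunits, alpha transcripts came to 212 ± 0.77 TPM and beta transcripts to 574 ± 1.12 TPM in H1p43, and to 188 ± 2.26 TPM and 532 ± 2.91 TPM in H1p16 (SD, n = 3 each). Both sums were higher in Lane 4, at 280 ± 8.51 TPM for alpha and 768 ± 5.77 TPM for beta transcripts (SD, n = 6). The ratio of the alpha to the beta sum was 0.364 ± 0.014 in Lane 4 (SD, n = 6), against 0.369 ± 0.001 in H1p43 and 0.353 ± 0.004 in H1p16 (SD, n = 3 each). That ratio in Lane 4 lay between those of the TruSeq groups, and so did the shares of ITGAV in the alpha sum (11.6% in Lane 4, 10.4% in H1p43 and 12.6% in H1p16) and of ITGB8 in the beta sum (0.22% in Lane 4, 0.23% in H1p43 and 0.18% in H1p16). The shares of the most abundant subunits lay outside them. ITGA6 made up 69.6% ± 0.97 of the alpha sum in Lane 4 (SD, n = 6), against 39.4% ± 0.38 in H1p43 and 44.98% ± 0.27 in H1p16. ITGB1 made up 78.97% ± 0.40 of the beta sum in Lane 4, against 58.6% ± 0.33 in H1p43 and 64.04% ± 0.54 in H1p16, and ITGB5 made up nearly all of the remainder.

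**Figure D2:**
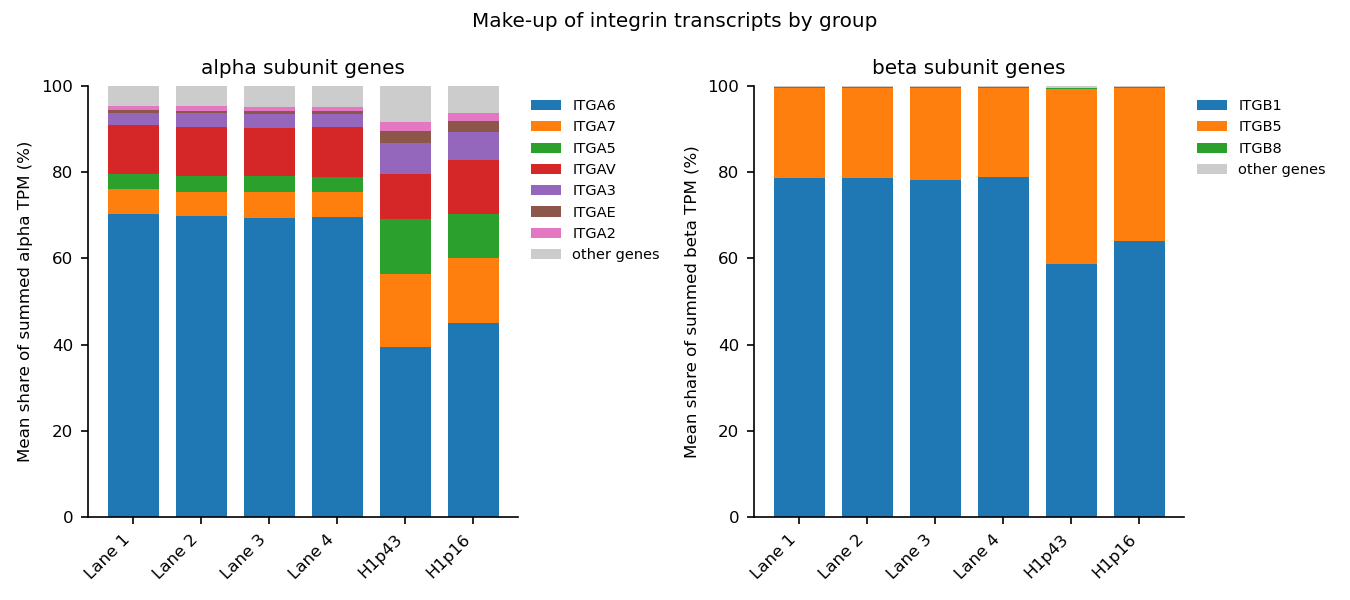
Mean share (percent) of each integrin gene in the summed TPM of the alpha genes (left) and of the beta genes (right), by group. ITGA6 holds 69.6% of the alpha sum in Lane 4, 39.4% in H1p43 and 44.98% in H1p16.

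The first comparison the groups allow is H1p43 against H1p16. Most alpha chains and ITGB5 were higher in H1p43 by small amounts: ITGA5, ITGA3, ITGA2, ITGA7, ITGB5 and ITGB8 rose by 0.20 to 0.39 on the log2 scale. ITGAV fell, and ITGA6 and ITGB1 fell on the count scale but did not pass the test on the TPM scale. ITGAE did not pass the test on either scale. By edgeR's quasi-likelihood test with Benjamini-Hochberg adjustment (adjusted p under 0.05), 6 of the 10 were higher and 3 lower, where 36.4% of 14574 tested genes were higher and 35.4% lower. With so many genes called, a member's call says little beyond its size.

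Among the laminin receptor chains, ITGA6 had 83.8, 82.8 and 83.8 TPM in H1p43, against 84.98, 82.9 and 85.9 TPM in H1p16. These ranges overlap. The edgeR log2 fold change of ITGA6 was -0.13 (SE 0.02, adjusted p = 7.76e-05), while limma on log2(TPM + 1) gave -0.02 (SE 0.02, adjusted p = 0.509). ITGA7, a laminin receptor chain best known from muscle, had 35.2, 35.6 and 37.1 TPM in H1p43, against 29.1, 27.2 and 28.4 TPM in H1p16. Every H1p43 library lay above every H1p16 library, and the edgeR log2 fold change was 0.24 (SE 0.04, adjusted p = 6.52e-06). ITGA3, whose chain binds laminins of epithelial basement membranes, had 14.7, 15.5 and 15.98 TPM in H1p43, against 12.6, 11.6 and 11.2 TPM in H1p16. Again the groups did not overlap, with a log2 fold change of 0.28 (SE 0.05, edgeR adjusted p = 3.97e-05).

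ITGB1, the partner of these chains, had 335, 339 and 335 TPM in H1p43, against 340, 340 and 342 TPM in H1p16. The groups did not overlap, yet their means lay about as close as the libraries of H1p43 to each other. As with ITGA6, the call rested on the scale: edgeR gave a log2 fold change of -0.13 (SE 0.02, adjusted p = 6.76e-06) and limma on log2(TPM + 1) gave -0.02 (SE 0.02, adjusted p = 0.379). The median of all genes tested was 0.01 in the edgeR fit and 0.09 in the limma fit. Of all genes called, edgeR put 5305 higher and 5155 lower, and limma on TPM put 6132 higher and 3423 lower.

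For the collagen and fibronectin receptors, ITGA2 had 4.60, 4.79 and 4.66 TPM in H1p43, against 3.53, 3.34 and 3.70 TPM in H1p16, a log2 fold change of 0.30 (SE 0.06, edgeR adjusted p = 0.000145). ITGA5 had 27.3, 27.5 and 26.2 TPM in H1p43, against 19.5, 19.9 and 19.2 TPM in H1p16. Neither gene's groups overlapped, and ITGA5 had the largest log2 fold change of the alpha members, 0.35 (SE 0.04, edgeR adjusted p = 1.25e-07). It was also the single member called when the test asked for a change beyond 1.2-fold (edgeR's test against a minimum fold, adjusted p = 0.0096), where 5328 genes were called in all.

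Of the vitronectin and TGF-beta receptor chains, ITGB5 had 234, 231 and 235 TPM in H1p43, against 193, 187 and 186 TPM in H1p16, a log2 fold change of 0.20 (SE 0.02, edgeR adjusted p = 1.88e-07). Its alpha partner ITGAV had 21.8, 22.4 and 21.9 TPM in H1p43, against 22.8, 24.3 and 23.8 TPM in H1p16, a log2 fold change of -0.21 (SE 0.03, edgeR adjusted p = 1.31e-05). The pair thus moved in opposite directions, both without overlap. ITGAV stayed below 0 on the TPM scale, at -0.10 (SE 0.04, limma adjusted p = 0.035). ITGB8 had 1.19, 1.40 and 1.43 TPM in H1p43, against 0.89, 0.98 and 0.95 TPM in H1p16, a log2 fold change of 0.39 (SE 0.11, edgeR adjusted p = 0.00304). By TPM alone, 6 members were higher and 2 lower in H1p43 without overlap, where 47.9% of the tested genes were higher and 25.9% lower in that way.

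ITGAE, whose chain joins that of ITGB7 into the E-cadherin receptor of lymphocytes in epithelia, had 6.06, 5.36 and 5.10 TPM in H1p43, against 4.54, 4.57 and 5.81 TPM in H1p16. The groups overlapped, and the log2 fold change was 0.03 (SE 0.10, edgeR adjusted p = 0.773). ITGB7 averaged 0.33 TPM in H1p43 and 0.26 TPM in H1p16. Exons of ITGAE and of the gene HASPIN on the opposite strand share 427 bases in GENCODE, and those of ITGA7 and METTL7B share 44 bases. Noncoding genes on the opposite strand share up to 203 bases with ITGAV, 174 with ITGA6, 98 with ITGB8, 48 with ITGA5 and 42 with ITGB1. Whether strand was used in counting was not given in the sources used here, so reads of these pairs may not be told apart.

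Among the 16 other integrins, 11 averaged under 1 TPM in every group, and 5 reached that level in at least 1 group. ITGA2B, known from platelets, had 6.71 ± 0.09 TPM in H1p43 and 3.23 ± 0.22 TPM in H1p16 (SD, n = 3 each). Its log2 fold change was 0.94. ITGA4, the chain of the VCAM-1 receptor, had 2.03 ± 0.08 TPM in H1p43 and 1.23 ± 0.18 TPM in H1p16, and ITGB4, the hemidesmosome partner of ITGA6, 1.92 ± 0.09 TPM in H1p43 and 1.16 ± 0.05 TPM in H1p16. ITGA1, a collagen receptor chain, was also called higher, at 4.84 ± 0.16 TPM in H1p43 and 3.96 ± 0.21 TPM in H1p16. ITGA9 had 3.34 ± 0.51 TPM in H1p43 and 2.88 ± 0.15 TPM in H1p16 and did not pass the test. Of the 8 other integrins tested, 4 were called higher and 0 lower, with a median log2 fold change of 0.31 where that of all genes was 0.01. Over all genes tested, 36.4% were called higher and 35.4% lower.

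Of 19 laminin, collagen IV and basement membrane genes tested, 12 were higher and 2 lower in H1p43, with a median log2 fold change of 0.33. Among all genes tested, 36.4% were called higher and 35.4% lower. The gene lists were chosen with earlier results of these data known, so their counts are a description only. The perlecan gene HSPG2 had 27.2 ± 0.77 TPM in H1p43 and 12.5 ± 1.197 TPM in H1p16, LAMB1 had 31.8 ± 0.58 TPM and COL4A6 9.66 ± 0.09 TPM in H1p43, against 17.8 ± 0.20 TPM and 5.64 ± 0.31 TPM in H1p16 (SD, n = 3 each). Of 13 genes for ligands read through RGD and related sites, 7 were higher and 5 lower, with a median of 0.17. The fibrillin gene FBN2 had 10.3 ± 0.27 TPM in H1p43 and 5.75 ± 0.17 TPM in H1p16, MFGE8 had 1088 ± 8.39 TPM in H1p43 and 779 ± 26.6 TPM in H1p16, and EDIL3, the gene of another secreted RGD protein, had 19.8 ± 0.60 TPM in H1p43 and 26.9 ± 0.38 TPM in H1p16.

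The 26 adhesion adaptor genes split into 11 higher and 9 lower in H1p43, with a median log2 fold change of 0.02. The shares over all genes tested were 36.4% higher and 35.4% lower. PTK2, the focal adhesion kinase, had 102.1 ± 0.90 TPM in H1p43 and 64.5 ± 2.14 TPM in H1p16. FERMT1, a kindlin that activates beta chains, had 8.74 ± 0.33 TPM in H1p43 and 11.8 ± 0.24 TPM in H1p16, and the tensin gene TNS3 had 11.3 ± 0.29 TPM in H1p43 and 14.4 ± 0.64 TPM in H1p16. Of 12 tetraspanin and membrane partner genes, 4 were higher and 5 lower, among them CD46 (86.1 ± 1.04 TPM in H1p43 and 62.3 ± 3.84 TPM in H1p16), SLC3A2, the partner that binds beta tails (444 ± 4.74 TPM in H1p43 and 382 ± 4.33 TPM in H1p16), and CD151, a laminin receptor partner (77.7 ± 1.93 TPM in H1p43 and 85.9 ± 2.23 TPM in H1p16). Medians for adaptors and partners lay near that of all genes.

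Other markers moved with these groups, where 36.4% of all genes tested were called higher in H1p43 and 35.4% lower. The pluripotency markers summed to 7418 to 7455 TPM in H1p43 and 8930 to 9214 TPM in H1p16, with 9 of 10 called lower and 0 higher; DNMT3B, the embryonic DNA methyltransferase, had 773 ± 1.86 TPM in H1p43 and 1460 ± 32.8 TPM in H1p16 (SD, n = 3 each). Of the 6 endoderm markers, which summed to 5.57 to 5.92 TPM in H1p43 and 3.51 to 3.92 TPM in H1p16 with SOX17 at 0 in both, 2 were tested and 1 was higher. The 6 trophoblast markers summed to 12.8 to 13.3 TPM in H1p43 and 7.18 to 8.99 TPM in H1p16, nearly all of it KRT7 (12.4 ± 0.38 TPM in H1p43 and 7.52 ± 1.04 TPM in H1p16), the 1 called of 2 tested. The 7 mesoderm markers summed to 44.8 to 45.3 TPM in H1p43 and 76.6 to 78.6 TPM in H1p16, mostly KDR, which was lower (40.7 ± 0.30 TPM in H1p43 and 74.2 ± 1.79 TPM in H1p16), while TBX6 was higher (3.37 ± 0.105 TPM in H1p43 and 2.38 ± 0.48 TPM in H1p16). Neuroectoderm markers summed to 176 to 179 TPM in H1p43 and 172.9 to 179 TPM in H1p16, with 3 of 4 tested called higher and 1 lower, and of 6 fibroblast markers tested 2 were higher and 4 lower. Their part in the integrin differences was not tested, and in bulk RNA fewer cells of a type and less RNA per cell cannot be told apart.

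**Figure D3:**
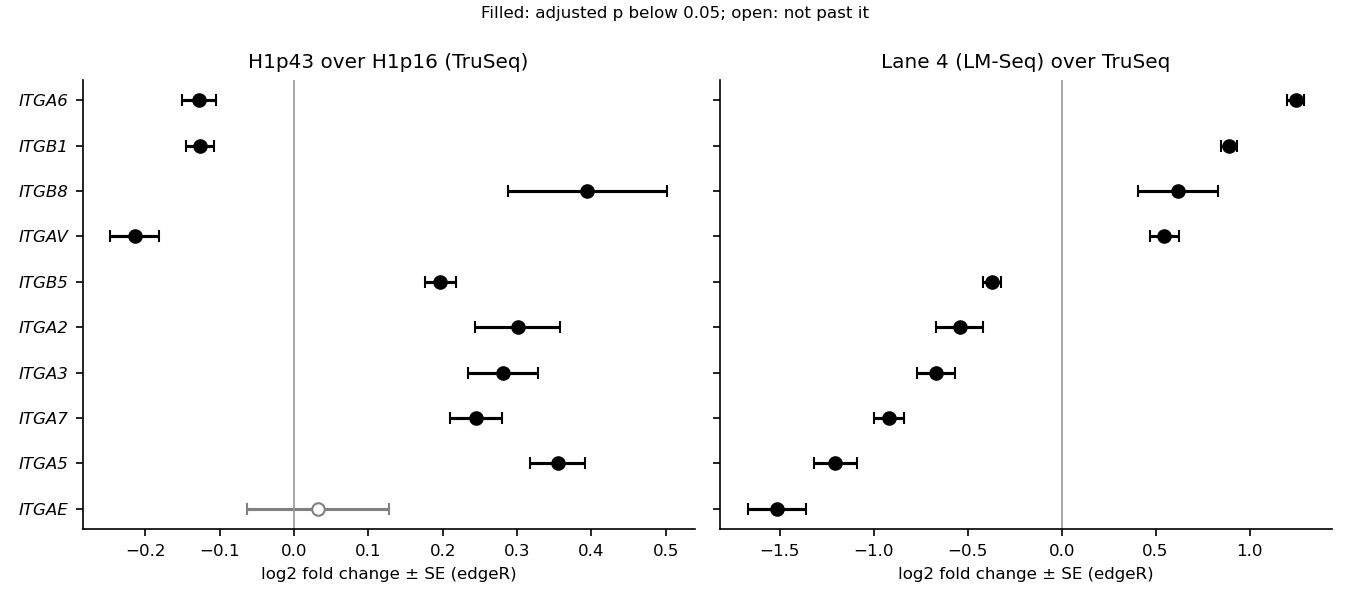
edgeR log2 fold change with SE of each integrin gene for H1p43 over H1p16 (left) and for Lane 4 over the 6 TruSeq libraries (right), on separate axes. Filled points passed an adjusted p of 0.05. ITGA5 sits at 0.35 on the left and -1.205 on the right, and ITGA6 at -0.13 and 1.25.

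The second comparison sets LM-Seq against TruSeq, with the 6 Lane 4 libraries, the deepest of the LM-Seq set, against the 6 TruSeq libraries. The TruSeq side pools H1p43 and H1p16, so its SDs also hold the difference between those groups. ITGA6, ITGB1, ITGB8 and ITGAV were higher in Lane 4 and ITGAE, ITGA5, ITGA7, ITGA3, ITGA2 and ITGB5 lower. Differences ran to 1.25 upward and -1.52 downward on the log2 scale, and for each member the size was larger than between H1p43 and H1p16. All 10 members were called by edgeR with Benjamini-Hochberg adjustment, 4 higher and 6 lower, where 34.3% of 13827 tested genes were higher and 36.9% lower. Whether the LM-Seq and TruSeq libraries came from the same RNA is not stated, so the kit and the cells cannot be told apart here.

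ITGA6 had 192 TPM at the lowest, 192 at the median and 201 at the highest in Lane 4, against 82.8, 83.8 and 85.9 TPM in TruSeq. The log2 fold change of 1.25 (SE 0.04, edgeR adjusted p = 1.34e-12) made it the single member higher by 2-fold or more, as were 9.02% of the genes tested. ITGB1 had 600, 605 and 615 TPM in Lane 4, against 335, 340 and 342 TPM in TruSeq, a log2 fold change of 0.89 (SE 0.04, edgeR adjusted p = 3.61e-11). Neither the laminin receptor chain nor its beta partner overlapped between kits. These were the members whose levels hardly differed between H1p43 and H1p16 in TPM.

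ITGAV had 27.8, 31.99 and 38.8 TPM at the lowest, median and highest in Lane 4, against 21.8, 22.6 and 24.3 TPM in TruSeq, a log2 fold change of 0.55 (SE 0.08, edgeR adjusted p = 9.97e-06). Its partner ITGB5 had 154.35, 158.9 and 163.6 TPM in Lane 4, against 186, 212 and 235 TPM in TruSeq, a log2 fold change of -0.37 (SE 0.05, edgeR adjusted p = 6.58e-06). As between H1p43 and H1p16, these partners moved in opposite directions, here with ITGAV the higher. ITGB8 had 1.01, 1.66 and 2.63 TPM in Lane 4, against 0.89, 1.09 and 1.43 TPM in TruSeq. Its ranges overlapped, and its log2 fold change of 0.62 (SE 0.21, edgeR adjusted p = 0.0161) did not hold everywhere: the adjusted p was 0.118 against H1p43 alone, 0.0779 by limma on log2(TPM + 1) and 0.0605 without the Lane 4 library highest in ITGB8, and over all 19 alternatives it ran from 8.62e-05 to 0.782.

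Of the members lower in Lane 4, ITGAE had 1.35, 1.72 and 2.28 TPM at the lowest, median and highest in Lane 4, against 4.54, 5.23 and 6.06 TPM in TruSeq. Its log2 fold change was -1.52 (SE 0.15, edgeR adjusted p = 2.42e-07). ITGAE shares 427 exon bases with HASPIN on the opposite strand, and the part of such reads in this difference was not tested. ITGA5 had 7.55, 9.34 and 12.2 TPM in Lane 4, against 19.2, 23.01 and 27.5 TPM in TruSeq, a log2 fold change of -1.205 (SE 0.11, edgeR adjusted p = 1.15e-07). ITGAE and ITGA5 were the members lower by 2-fold or more, as were 15.1% of the genes tested.

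ITGA7 had 14.2, 16.99 and 18.1 TPM in Lane 4, against 27.2, 32.2 and 37.1 TPM in TruSeq, a log2 fold change of -0.92 (SE 0.08, edgeR adjusted p = 3.35e-08). ITGA3 had 7.23, 7.88 and 10.3 TPM in Lane 4, against 11.2, 13.7 and 15.98 TPM in TruSeq, a log2 fold change of -0.67 (SE 0.10, edgeR adjusted p = 1.88e-05). So the laminin receptor chains did not move as a block: ITGA6 was higher, and ITGA7 and ITGA3 lower. ITGA2 had 1.92, 2.77 and 3.28 TPM in Lane 4, against 3.34, 4.15 and 4.79 TPM in TruSeq, a log2 fold change of -0.54 (SE 0.13, edgeR adjusted p = 0.00121). By TPM alone, 3 members were higher and 6 lower in Lane 4 without overlap, where 26.6% of genes were higher and 27.2% lower in that way.

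With Lane 3, Lane 2 or Lane 1 in place of Lane 4, all 10 members were called in the same direction each time. These fits share the TruSeq libraries, and the lanes share library numbers.

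The split went with the base composition of the transcripts with 1 exception, and its cause was not tested. Of the 5 low-GC members, ITGA6, ITGB1, ITGB8 and ITGAV were higher in Lane 4 and ITGA2 lower, and all 5 high-GC members were lower. Across the 13512 genes with a matched transcript, the log2 fold change of Lane 4 over TruSeq had a Spearman correlation of -0.57 with transcript GC content, as a description over genes that share libraries. The median log2 fold change was 0.50 in the 2703 genes lowest in GC content and -0.85 in the 2703 highest. For H1p43 over H1p16 the same correlation over 14229 genes was 0.12, with medians of -0.03 and 0.13 in the 2846 genes lowest and the 2846 highest in GC content.

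When each library's trend on GC content was entered into the edgeR fit, an alternative chosen after seeing the data, 6 members remained called in Lane 4 against TruSeq. ITGA6 (0.84, SE 0.04) and ITGB1 (0.37, SE 0.04) were higher, with adjusted p = 1.23e-10 and 1.56e-06 from edgeR. ITGAE (-1.203, SE 0.15), ITGA2 (-1.04, SE 0.13), ITGA5 (-0.64, SE 0.11) and ITGA7 (-0.28, SE 0.07) were lower, with edgeR adjusted p of at most 0.00259. ITGAV (0.04), ITGB8 (0.07), ITGB5 (-0.10) and ITGA3 (0.03, now above 0) did not pass the test. ITGA2, low in GC and yet lower in Lane 4, was the single member that moved further from 0 with this adjustment. The adjustment takes out any difference that goes with GC content, whatever its source, so a cause was not tested.

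**Figure D4:**
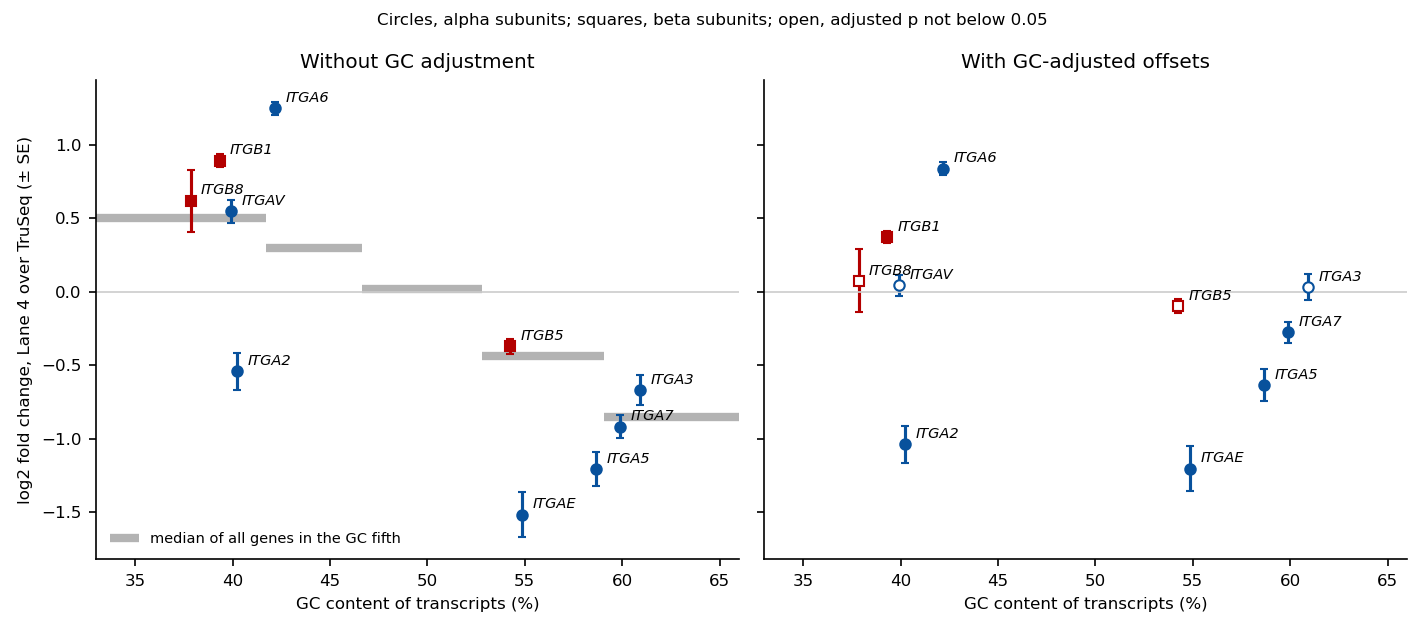
log2 fold change of Lane 4 over TruSeq (with SE) against the GC content (percent) of each integrin's transcripts, without (left) and with (right) GC-adjusted offsets. Grey bars on the left are medians of all genes in 5 equal bins of GC content, from 0.50 to -0.85; ITGA2 lies below them at -0.54, and on the right at -1.04.

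Of the other integrins at 1 TPM or more in some group, ITGA2B had 2.01 ± 0.79 TPM in Lane 4 and 4.97 ± 1.91 TPM in TruSeq, and ITGB4 0.73 ± 0.24 TPM in Lane 4 and 1.54 ± 0.42 TPM in TruSeq (SD, n = 6 each). Both were called lower. ITGA1 was called higher, at 5.47 ± 0.83 TPM in Lane 4 and 4.40 ± 0.51 TPM in TruSeq. ITGA9 (3.87 ± 1.495 TPM in Lane 4 and 3.11 ± 0.42 TPM in TruSeq) and ITGA4 (1.56 ± 0.33 TPM in Lane 4 and 1.63 ± 0.46 TPM in TruSeq) did not pass the test.

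Adhesion adaptors were mostly lower in Lane 4, with 5 of 26 higher and 17 lower and a median log2 fold change of -0.38, where that of all genes was -0.06. Over all genes tested, 34.3% were called higher and 36.9% lower. ZYX, the gene of the focal adhesion protein zyxin, had 88.2 ± 9.07 TPM in Lane 4 and 305 ± 19.4 TPM in TruSeq, CIB1, whose protein binds the ITGA2B tail, 9.26 ± 1.78 TPM in Lane 4 and 49.2 ± 4.49 TPM in TruSeq, and PXN, the gene of paxillin, 53.1 ± 5.06 TPM in Lane 4 and 106.1 ± 7.78 TPM in TruSeq (SD, n = 6 each). Of 12 tetraspanin and partner genes, 3 were higher and 7 lower, with a median of -0.44. CD9, which encodes a surface tetraspanin, had 718 ± 41.2 TPM in Lane 4 and 180 ± 5.68 TPM in TruSeq, CD63 had 972 ± 15.3 TPM in Lane 4 and 533 ± 2.80 TPM in TruSeq, and the basigin gene BSG had 394 ± 17.9 TPM in Lane 4 and 939 ± 25.8 TPM in TruSeq.

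Ligand genes were split between kits, where 34.3% of all genes tested were called higher in Lane 4 and 36.9% lower. Of 19 laminin, collagen IV and basement membrane genes, 6 were higher and 9 lower, with a median log2 fold change of -0.20. Of 13 RGD-type ligand genes, 4 were higher and 3 lower, with a median of 0.09. COL4A1 had 93.4 ± 3.87 TPM in Lane 4 and 44.5 ± 3.05 TPM in TruSeq, and COL4A2, its partner in the collagen IV trimer, 73.3 ± 3.25 TPM in Lane 4 and 47.9 ± 5.28 TPM in TruSeq. LAMA5 had 11.5 ± 0.50 TPM in Lane 4 and 29.2 ± 6.60 TPM in TruSeq. THBS1, the gene of thrombospondin, had 31.9 ± 2.46 TPM in Lane 4 and 16.1 ± 1.08 TPM in TruSeq, EDIL3 had 47.2 ± 2.05 TPM in Lane 4 and 23.3 ± 3.90 TPM in TruSeq, and MFGE8 had 411 ± 23.5 TPM in Lane 4 and 934 ± 170 TPM in TruSeq. Pluripotency markers summed to 11912 to 12764 TPM in Lane 4, with 7 of 10 called higher than in TruSeq and 2 lower; the part of these differences in the integrin values was not tested.

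The third comparison sets LM-Seq lanes of different depth against each other, for libraries that carry the same number in both lanes. Members' mean levels were close in all lanes: ITGB1 averaged 599 ± 30.025 TPM in Lane 1, 601 ± 21.996 TPM in Lane 2, 592 ± 22.1 TPM in Lane 3 and 607 ± 5.58 TPM in Lane 4. ITGA6 averaged 196 ± 13.9, 193 ± 13.1, 190 ± 10.3 and 195 ± 3.97 TPM in Lanes 1 to 4 (SD, n = 95, 48, 24 and 6).

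No member was called in any lane comparison by edgeR with Benjamini-Hochberg adjustment. Calls numbered 2 of 12419 genes (0.0161%) for Lane 4 against Lane 1, 0 of 10871 (0%) for Lane 3 against Lane 1 and 0 of 10120 (0%) for Lane 2 against Lane 1; DESeq2 called 2, 0 and 0. At an unadjusted edgeR p under 0.05 there were 216 genes for Lane 3 and 182 for Lane 2. With same-numbered libraries paired in the fit, edgeR called 13 (0.105%), 44 (0.405%) and 26 (0.257%), again with 0 members. The log2 fold changes of members in Lane 4 over Lane 1 ran from -0.13 (ITGB8, SE 0.31) to 0.22 (ITGAE, SE 0.42), so differences of that size could not be resolved for the scarce members. For ITGB1 it was -0.01 (SE 0.03) and for ITGA6 0.01 (SE 0.04). In Lane 3 over Lane 1 ITGA3 alone had an unadjusted p under 0.05, with a log2 fold change of 0.19 (SE 0.09, edgeR adjusted p = 0.999).

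All 10 members had a smaller spread between libraries in Lane 4 than in Lane 1. Each value covers all libraries of a lane, so the lanes differ in the library numbers held as well as in depth. Over all of Lane 1, ITGB1 ran from 504 to 663 TPM. For the numbers that Lane 4 also holds, ITGB1 in Lane 1 ran only from 599 to 625 TPM. The part of depth in the spread was not tested. For ITGB1 the coefficient of variation (SD over mean of TPM) was 5.01%, 3.66%, 3.73% and 0.92% in Lanes 1 to 4, where the median expected count was 1191, 2230, 4300 and 15405. For ITGA6 it was 7.07%, 6.77%, 5.38% and 2.04% in Lanes 1 to 4. For ITGAE it was 65.5%, 52.8%, 40.5% and 20.02%, at medians of 3, 5, 12.5 and 43.99 expected counts. The scarcest member thus varied most in Lane 1, and ITGB1 least in all 4 lanes. ITGAE was at 0 in 7 of 95 libraries of Lane 1 and 2 of 48 of Lane 2, where a count of 0 allows up to 3 counts for counting error alone, and it was too low to be tested in the comparisons of Lanes 2 and 3 with Lane 1.

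**Figure D5:**
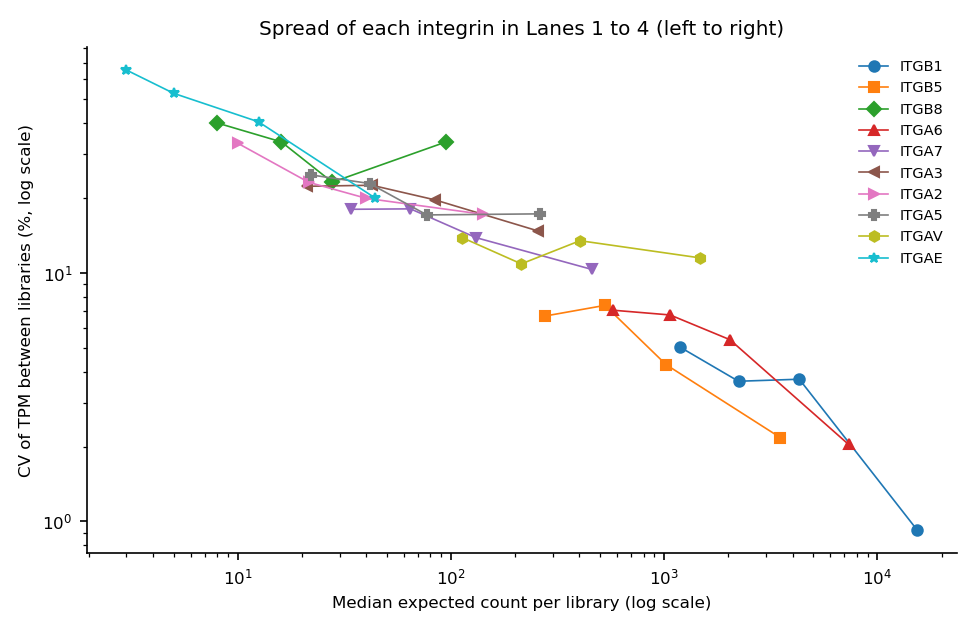
Coefficient of variation of TPM between libraries (percent, log axis) against the median expected count per library (log axis) for each integrin, with Lanes 1 to 4 joined from left to right. The lanes hold different sets of library numbers. ITGAE stands at 65.5%, 52.8%, 40.5% and 20.02% in Lanes 1 to 4, whereas ITGB8 is lowest in Lane 3 (23.2%) and stands at 33.6% in Lane 4.

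ITGA2, ITGA6 and ITGAE had a smaller coefficient at each step from Lane 1 to Lane 4, and for each of the other 7 members it was larger at 1 step or more. ITGB8 had a coefficient of 40.1% in Lane 1, 33.6% in Lane 2, 23.2% in Lane 3 and 33.6% in Lane 4, and ITGAV 13.8%, 10.9%, 13.5% and 11.5%. Lane 4 holds 6 libraries, which limits the precision of these values.

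Over the 24 numbers present in Lanes 1, 2 and 3 (72 libraries), an edgeR test of any difference between numbers, added after seeing the data, called all 9 members tested, as it did 97.4% of the 10959 genes tested, so the calls are no property of integrins. The means of the numbers spanned 0.22 log2 CPM (counts scaled by library total) for ITGB1, 0.23 for ITGA6, 0.32 for ITGB5 and 0.47 for ITGAV. They spanned 0.85 for ITGA3, 0.90 for ITGA7, 1.10 for ITGA2, 1.16 for ITGA5 and 1.51 for ITGB8. These are distances between the extremes of 24 means, each of which also carries the spread within its number. The SD between numbers was taken over means of several libraries, and the SD within a number over single libraries. Means spread less than single libraries, so the sizes of these SDs cannot be compared directly. The SD was 0.28 within and 0.21 between for ITGA3, and 0.34 and 0.26 for ITGA2. For ITGB8 it was 0.38 within and 0.40 between and for ITGA5 0.24 and 0.26, while for ITGB1 it was 0.03 and 0.05. Whether a shared number marks the same library run again, or the same RNA, was not stated.

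Across the 24 libraries of Lane 3, the genes at 10 TPM or more whose log2(TPM + 1) was most like that of ITGA6 were ZDHHC20 (Pearson r = 0.86), ELOVL5 (0.84) and RBM12 (0.84). Over the 71 libraries of Lane 1 with other numbers their r with ITGA6 was 0.46, 0.54 and 0.56. For ITGB1 the most similar genes in Lane 3 were HNRNPA1L2 (0.80), CCAR1 (0.75) and SAE1 (0.72), with r of -0.26, 0.31 and 0.00 over those Lane 1 libraries. In these libraries, which did not enter the choice, r was lower for all 6 genes. These are descriptions over libraries that share a protocol and base composition trends, picked as the highest of 8292 genes.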

How the data were processed

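RNA of H1 cells was sequenced in 6 TruSeq and 173 LM-Seq libraries. The authors deposited RSEM expected counts and TPM per gene; CASAVA 1.8.2, Bowtie 0.12.8, RSEM 1.2.3 and hg19 are named in the submitters' processing notes. Expected counts were rounded and tested with edgeR 4.0.16 (filterByExpr, TMM, quasi-likelihood test, Benjamini-Hochberg adjusted p under 0.05) over all genes, with only the groups compared in each fit. The alternatives used DESeq2 1.42.0, limma 3.58.1 on log2(TPM + 1) or log2(TPM + 0.1) of genes averaging 1 TPM or more, other scalings and filters, and libraries left out, under R 4.3.3. The fits were checked on simulated counts. Transcript GC content and sequences came from GENCODE 29, with 97.1% of genes matched through their RefSeq transcript identifiers. That release is not on the build named for the deposited data, so no coordinates are given.

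Same-numbered libraries of Lanes 2, 3 and 4 and Lane 1 deviated together (lowest r 0.174, 0.220 and 0.395), so numbers pair those lanes. The members and gene lists were chosen with earlier results of these data known. Named were all 10 members, other integrins at a mean of 1 TPM or more in any group, and up to 3 genes of each further list with the lowest adjusted p; of the markers, those that describe the groups.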

Additional observations from a re-analysis of the deposited data

How the results depend on the processing

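All 10 members kept their direction under every alternative run for a called value except ITGA3 in Lane 4 against TruSeq, which turned to 0.031 (not called) with GC-adjusted offsets; the offsets left 6 members called there. For H1p43 against H1p16, a minimum fold of 1.2 left 5328 genes and 1 member (ITGA5) called, and the TPM scale ended the calls of ITGA6 and ITGB1. Replicate numbers there did not pair the samples (r at most 0.064); with them as a replicate block 10463 genes and 9 members were called. Genes called numbered 9828 to 10470 with a library left out, and 9728 to 9795 without each Lane 4 library in Lane 4 against TruSeq. Among lanes, a replicate block gave 26, 44 and 13 genes for Lanes 2, 3 and 4 against Lane 1. All libraries of both lanes gave 60 genes for Lane 3 and 0 for Lane 4, counts thinned to a common total gave 0 for Lane 4, and no filter gave 1 for Lane 2. No alternative called a member between lanes. The cause of these changes was not tested. Depth limits ITGAE, ITGB8 and ITGA2 in Lane 1, at medians of 3, 8.02 and 10 expected counts.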
